A study of Mus musculus with 6 samples.

Results

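Toll-like receptor genes were followed in RNA-seq counts from the adult mouse brain with and without Bahd1. The 10 genes, Tlr1 to Tlr9 and Tlr13, were taken by gene name from the 53801 genes of the counts table, with no measured value used in the choice. All 10 passed the filter of at least 10 counts summed over the 6 mice, as did 23975 of the 53801 genes. Bahd1 encodes a chromatin protein that takes part in gene repression. Bahd1-KO mice (genotype Bahd1-/-, n = 3) were compared with Bahd1-WT mice (Bahd1+/+, n = 3), all of strain C57BL/6, adult, about 70 weeks old and without treatment, from which RNA of one brain hemisphere each was sequenced. The Bahd1-KO mice lacked the gene in the whole body, came from matings of heterozygous parents, and were survivors of a genotype with many deaths around birth. Xist, which is transcribed in females, ranged from 0.0136 to 0.130 CPM (counts scaled to the same normalized total in each library) over the 6 libraries and Ddx3y, on the Y chromosome, from 52.8 to 135 CPM, as in males, which bears on the 3 receptor genes of the X chromosome.

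Toll-like receptors are membrane proteins that sense molecules of microbes and of damaged cells. The cell-surface receptors bind mainly lipids and proteins, and the endosomal receptors bind nucleic acids. Almost all of them signal through the adaptor Myd88, while Tlr3 uses Ticam1 (TRIF) and Tlr4 uses both, and the signal ends in NF-kB, interferon regulatory factors and cytokine genes. In the brain, microglia, the resident macrophages, carry most of these receptors, and astrocytes and other cells carry some.

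The deposited counts summed to between 42297150 and 93557948 per library. Bahd1, the targeted gene, had 14.6 ± 0.80 CPM in Bahd1-WT and 0.0548 ± 0.080 CPM in Bahd1-KO brains (SD, n = 3 each), which fits the genotype labels. Defining markers of brain cells were present in every library, with summed levels of 4810 to 6492 CPM for 4 neuronal markers, 1463 to 1887 CPM for 4 astrocyte markers and 351 to 439 CPM for 12 microglia markers. The Bahd1-WT libraries also held transcripts of airway and alveolar epithelium. The summed level of 5 such markers was 108, 26.1 and 2.30 CPM in Bahd1-WT replicates 1, 2 and 3, against 0.506 to 1.42 CPM in the Bahd1-KO libraries. Bahd1-KO replicate 2 had the lowest CPM of the 6 libraries in 7 of the 10 receptors. In bulk tissue, fewer cells of a type and less RNA per cell cannot be told apart.

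The genes of the family differed widely in level. Levels between genes are given as CPM per kilobase of exon, with normalized library sizes. Tlr3, a receptor for double-stranded RNA, was highest, with a mean over the 6 mice of 4.82 CPM per kilobase, followed by Tlr7 with 1.97, Tlr13 with 1.21, Tlr2 with 0.659 and Tlr4 with 0.596. The other 5 genes were lower, with means of 0.188 for Tlr1, 0.172 for Tlr6, 0.126 for Tlr9, 0.120 for Tlr5 and 0.0976 for Tlr8. Each gene overlapped its neighbour in this order over the 6 mice, except that every value of Tlr4 (lowest 0.289) was above every value of Tlr1 (highest 0.276). The order was the same with total counts in place of normalized library sizes. Of the other Toll-like receptor genes of the mouse, Tlr11 had 0 to 4 counts, at the detection limit, set here at 3 counts (0.0315 to 0.069 CPM by library), and Tlr12 had 7 to 35 counts.

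**Figure D1:**
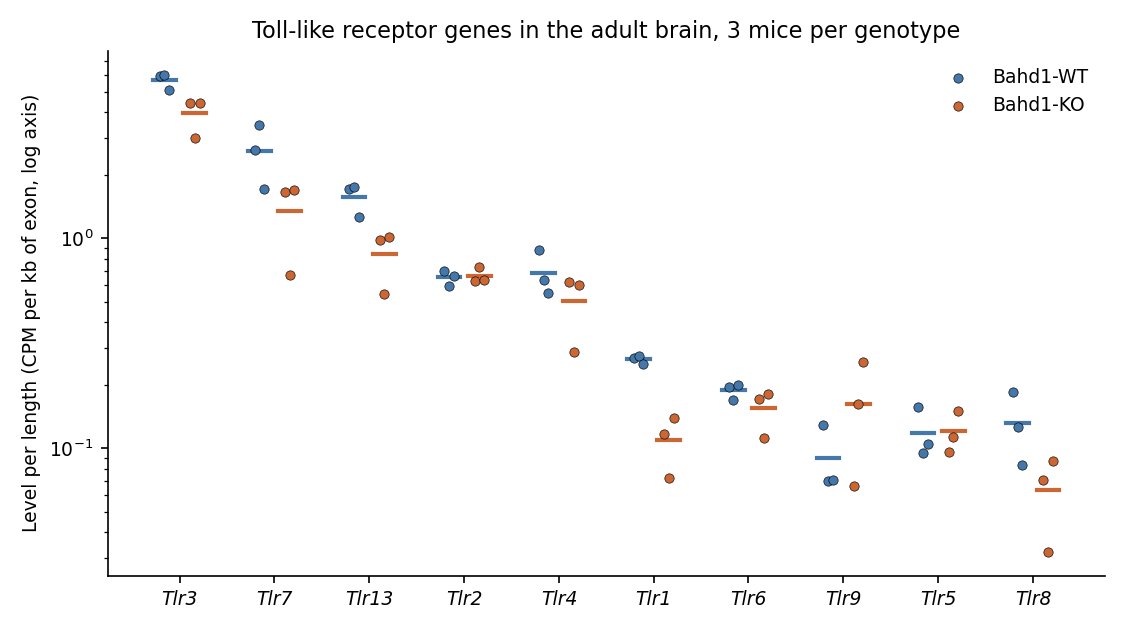
Level of each receptor gene in each mouse, in CPM per kilobase of exon on a log axis, with genes ordered by their mean over the 6 mice. Points are mice, bars are genotype means (n = 3), and the Bahd1-KO points of Tlr1, Tlr3, Tlr7 and Tlr13 all sit below the Bahd1-WT points.

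No receptor gene was a differentially expressed gene (DEG) between the genotypes. A DEG was a gene with a Benjamini-Hochberg adjusted p under 0.05 in edgeR's quasi-likelihood test and a change of at least 2-fold, a threshold passed by 0 of the 10 receptors and by 0.00834% of all genes tested. Of the 10 receptors, 7 had a lower and 3 a higher mean in Bahd1-KO brains, and a negative log2 fold change was found for 53.4% of all genes tested. Tlr1, Tlr3, Tlr7, Tlr8 and Tlr13 were lower with an unadjusted p under 0.05, as were 12% of all genes, and no receptor was higher at that level, as were 19.9% of all genes. At an adjusted p under 0.1, Tlr1 and Tlr13 were lower, as were 4.77% of all genes. In 4 genes every Bahd1-KO mouse was below every Bahd1-WT mouse, a pattern found in 19.3% of all genes. The median log2 fold change of the 10 genes was -0.49, against -0.06 over all genes tested, and it was -0.27 without Bahd1-KO replicate 2. The count of 5 genes with an unadjusted p under 0.05 became 2 without Bahd1-WT replicate 1, 2 without Bahd1-WT replicate 2 and 3 without Bahd1-KO replicate 2. Over all genes, the share with an unadjusted p under 0.05 in either direction went from 31.8% to 24.2%, 18.3% and 24.8% in the same fits. DESeq2, the tool named in the methods of the study, gave 1 receptor as a DEG, Tlr1, and 1.06% of all genes as lower DEGs. By DESeq2, Tlr1 and Tlr13 were lower at an adjusted p under 0.05, as were 2.87% of all genes.

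In these libraries the fold change between the genotypes followed the GC content of genes. Over 10 equal groups of expressed genes by GC content, the median log2 fold change went from -0.55 at a median GC content of 39.4% to 1.4 at 59.4%. The longest transcripts of the receptors had a GC content of 39.4% for Tlr4, 40.0% for Tlr3, 40.1% for Tlr8, 41.0% for Tlr7, 43.6% for Tlr13, 45.1% for Tlr1, 45.6% for Tlr6, 47.6% for Tlr5, 49.3% for Tlr2 and 56.2% for Tlr9. The 7 receptors of the lowest GC content were those with a lower mean in Bahd1-KO brains. Fold changes are therefore also given with an offset per library, a smooth function of GC content and transcript length, called the GC offset from here on. With the GC offset the median log2 fold change of the 10 receptors was -0.04, against -0.06 over all genes, and 2 of them, Tlr1 and Tlr13, were lower at an unadjusted p under 0.05, as were 11.4% of all genes.

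**Figure D2:**
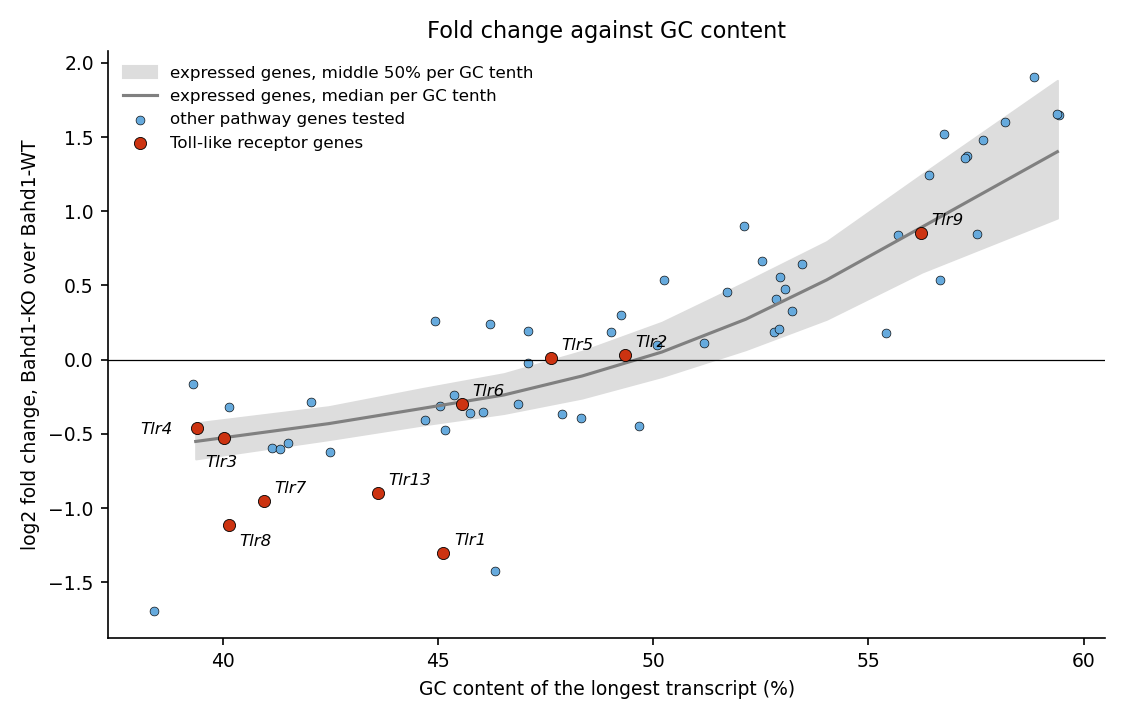
log2 fold change of Bahd1-KO over Bahd1-WT against GC content of the longest transcript in percent, for the 10 receptors (red) and the 51 other pathway genes tested (blue). The line and band give the median and middle 50% of expressed genes by group of GC content, and Tlr1, Tlr7, Tlr8 and Tlr13 lie below the band while Tlr3, Tlr4, Tlr6, Tlr9, Tlr5 and Tlr2 lie in or at the edge of it.

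Of the cell-surface receptors, Tlr1 had the largest difference. Tlr1 forms a receptor with Tlr2 for triacylated lipoproteins, and its gene (ENSMUSG00000044827) lies on chromosome 5 of GRCm38, from 64924679 to 64933563 on the minus strand. Counts of Tlr1 were 83, 57 and 62 in the Bahd1-WT replicates 1 to 3, against 17, 23 and 27 in those of Bahd1-KO, which were 0.907, 0.923 and 0.845 CPM against 0.391, 0.242 and 0.466 CPM. Every Bahd1-KO mouse was below every Bahd1-WT mouse, and the Bahd1-WT mice were close together. The level was 0.892 ± 0.041 CPM in Bahd1-WT and 0.366 ± 0.11 CPM in Bahd1-KO brains (SD, n = 3), a log2 fold change of -1.31 ± 0.31 (SE) with a 95% interval of -2.0 to -0.61 (edgeR adjusted p = 0.0634). With the GC offset it was -1.04 (edgeR adjusted p = 0.0914), and every Bahd1-KO mouse was still below every Bahd1-WT mouse. Tlr1 was lower with an unadjusted p under 0.05 in all 17 fits, and its adjusted p ranged from 0.00949 to 0.243 across them. It was a DEG in 5 of these fits, in which 8.37 to 16.8% of all genes were DEGs. The 16.8% belongs to the fit without Bahd1-KO replicate 1, where Tlr1 had an edgeR adjusted p = 0.0237.

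Tlr6, the partner of Tlr2 for diacylated lipoproteins, lies 18467 bases from Tlr1 on the same strand of chromosome 5 (ENSMUSG00000051498, 64952031 to 64960097) and is its closest relative. Counts of Tlr6 were 67, 39 and 55 in Bahd1-WT mice, against 28, 40 and 39 in Bahd1-KO mice, or 0.732, 0.632 and 0.750 CPM against 0.644, 0.420 and 0.674 CPM. The genotypes overlapped, with a log2 fold change of -0.30 ± 0.28 (SE; 95% interval -0.94 to 0.34), -0.06 with the GC offset and -0.10 without Bahd1-KO replicate 2. The ratio of Tlr1 to Tlr6 counts, taken within each mouse, was 1.24, 1.46 and 1.13 in Bahd1-WT and 0.607, 0.575 and 0.692 in Bahd1-KO mice. The mean log2 ratio differed by -1.03 between the genotypes, with all Bahd1-KO values below all Bahd1-WT values (two-sided exact permutation test, p = 0.1, the smallest p that 3 against 3 mice allow).

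The pair shares part of its coding sequence, so that some reads could have come from either gene. Of all 50-base windows of the longest coding transcript, 15.3% of those of Tlr1 were also found in Tlr6, and 12.6% of those of Tlr6 were found in Tlr1 or Ctsq. The longest identical run was 229 bases, inside the coding sequence of both. The stretch around the start of that run is printed as an example of how alike the genes are, and it is identical on both sides of the base before the run. It lies in the last exon of each gene, chr5:64925706-64925825 for Tlr1 and chr5:64953997-64954116 for Tlr6 (GRCm38, GENCODE M21 transcripts, minus strand), and capitals mark the single base that differs.
Tlr1: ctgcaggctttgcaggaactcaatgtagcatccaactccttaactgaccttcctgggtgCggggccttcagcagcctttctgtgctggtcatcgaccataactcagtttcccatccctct
Tlr6: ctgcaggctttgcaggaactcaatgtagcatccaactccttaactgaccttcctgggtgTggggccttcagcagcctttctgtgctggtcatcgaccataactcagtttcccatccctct
A read across the capital base differs between the genes, a read inside the 229-base run does not, and how the counting treated the latter was not tested.

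The promoters were read next. RefSeq windows of 300 bases, from 250 before to 50 after a gene's start (GRCm38.p6), were found for 8 of the 10 receptors, in 10 windows, since Tlr1 and Tlr6 have 2 each. Each was searched on both strands for GAGGAA, the core bound by PU.1, a master regulator of macrophages and microglia. This motif was in 4 of the 10 windows, those of Tlr8, Tlr9 and Tlr13 and the upstream 1 of the 2 windows of Tlr1, and in 28.3% of all 32851 windows. The broader ETS core GGAAGT, which can overlap it, was in 5 of the 10 windows and in 23.8% of all, and an interferon response motif, GAAA followed by any 2 bases and GAAA again, was in 1 of the 10 and in 3.44% of all. The windows of Tlr1 (chr5:64933509-64933808, minus strand) and Tlr6 (chr5:64959999-64960298, minus strand) at the farther upstream start of each are shown for the neighbours whose ratio is given above, and that of Tlr13 (chrX:106143025-106143324, plus strand) as the other gene with an adjusted p under 0.1. Capitals mark GAGGAA.
Tlr1 promoter: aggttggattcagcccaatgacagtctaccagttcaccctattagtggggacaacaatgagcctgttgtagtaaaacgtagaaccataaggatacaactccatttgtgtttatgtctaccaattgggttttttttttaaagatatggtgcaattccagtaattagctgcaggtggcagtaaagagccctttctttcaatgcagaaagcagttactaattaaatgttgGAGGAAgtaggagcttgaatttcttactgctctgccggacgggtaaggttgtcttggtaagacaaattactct
Tlr6 promoter: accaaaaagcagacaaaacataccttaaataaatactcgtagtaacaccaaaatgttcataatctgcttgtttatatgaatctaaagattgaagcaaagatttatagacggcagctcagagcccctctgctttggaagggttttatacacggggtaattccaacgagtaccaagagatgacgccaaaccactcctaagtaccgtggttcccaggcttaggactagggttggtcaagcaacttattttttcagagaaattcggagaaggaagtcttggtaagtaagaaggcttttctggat
Tlr13 promoter: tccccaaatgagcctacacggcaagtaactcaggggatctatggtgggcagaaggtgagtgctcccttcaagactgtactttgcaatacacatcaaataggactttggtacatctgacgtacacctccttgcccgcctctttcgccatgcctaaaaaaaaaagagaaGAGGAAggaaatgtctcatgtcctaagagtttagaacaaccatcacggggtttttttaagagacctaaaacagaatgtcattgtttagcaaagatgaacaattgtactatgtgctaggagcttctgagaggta
A match is a match of letters. Neither window of Tlr6 held GAGGAA, which speaks of these windows only. The interferon response motif was in the window of Tlr6 that is not shown.

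Tlr2 and Tlr4, the receptors for lipoproteins and lipopolysaccharide, did not differ beyond the spread between mice. Tlr2 had 2.11, 1.80 and 1.99 CPM in Bahd1-WT and 1.88, 2.22 and 1.92 CPM in Bahd1-KO mice, and the genotypes overlapped. Its log2 fold change was 0.03 ± 0.21 (SE), and its 95% interval, -0.46 to 0.52, leaves out a 2-fold change in either direction. It was 0.02 with the GC offset. Tlr4 had 4.88, 3.51 and 3.07 CPM in Bahd1-WT and 3.45, 1.61 and 3.33 CPM in Bahd1-KO mice, so that only Bahd1-KO replicate 2 was below all Bahd1-WT mice. The log2 fold change of Tlr4 was -0.46 ± 0.33 (SE; edgeR adjusted p = 0.356), and with the GC offset 0.04. It was -0.17 without Bahd1-KO replicate 2 and -0.24 without Bahd1-WT replicate 1. Tlr5, the receptor for flagellin, had 0.754, 0.453 and 0.505 CPM in Bahd1-WT and 0.460, 0.546 and 0.725 CPM in Bahd1-KO mice. The genotypes overlapped almost fully in Tlr5, whose log2 fold change was 0.01 with a 95% interval of -0.70 to 0.72, and 0.14 with the GC offset. The direction of both Tlr2 and Tlr5 turned with upper-quartile scaling (-0.11 and -0.13), a scaling that moved the median of all genes by -0.14.

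Of the endosomal receptors, Tlr13 differed most clearly. Tlr13, a mouse receptor for bacterial ribosomal RNA, is on the X chromosome (ENSMUSG00000033777, 106143204 to 106160493, plus strand) and was counted 677, 465 and 398 times in Bahd1-WT mice, against 185, 223 and 252 times in Bahd1-KO mice. In CPM these were 7.40, 7.53 and 5.43 against 4.25, 2.34 and 4.35, so the genotypes did not overlap and Bahd1-KO replicate 2 was lowest. The log2 fold change was -0.90 ± 0.29 (SE; 95% interval -1.55 to -0.24; edgeR adjusted p = 0.0839), and with the GC offset it was -0.56 (edgeR adjusted p = 0.156), with overlap. Like Tlr1, Tlr13 was lower with an unadjusted p under 0.05 in all 17 fits. Its adjusted p was under 0.05 in 3 of them, both runs of DESeq2 and the fit without Bahd1-KO replicate 1 (edgeR adjusted p = 0.0399). In that last fit 16.8% of all genes were DEGs.

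Tlr3 was the most abundant receptor and had the smallest error. It had 31.0, 31.4 and 26.6 CPM in Bahd1-WT and 23.0, 15.7 and 23.0 CPM in Bahd1-KO mice, without overlap, from 1001 to 2833 counts. The log2 fold change was -0.53 ± 0.20 (SE; edgeR adjusted p = 0.118). It was -0.01 with the GC offset, and the genotypes then overlapped. An antisense gene, Gm45542, overlaps 381 exon bases of Tlr3. The counting was stated to use strand, and Gm45542 had 0 to 2 counts in each library.

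Tlr7 and Tlr8, receptors for single-stranded RNA, are 40599 bases apart on the X chromosome and had log2 fold changes of like size. Tlr7 had 10.7, 14.1 and 7.01 CPM in Bahd1-WT and 6.78, 2.73 and 6.98 CPM in Bahd1-KO mice. The genotypes were separated only by the small gap between 6.98 and 7.01 CPM, the Bahd1-WT mice were far apart, and Bahd1-KO replicate 2 was far below the other Bahd1-KO mice. Its log2 fold change was -0.95 ± 0.39 (SE; edgeR adjusted p = 0.137), and -0.51 with the GC offset. Tlr8 had 0.667, 0.453 and 0.300 CPM in Bahd1-WT and 0.253, 0.116 and 0.311 CPM in Bahd1-KO mice, with overlap, from 11 to 61 counts. The log2 fold change of Tlr8 was -1.12 ± 0.46 (SE; edgeR adjusted p = 0.138), and -0.62 with the GC offset. Without Bahd1-KO replicate 2, the value was -0.63 for Tlr7 and -0.74 for Tlr8. The ratio of Tlr7 to Tlr8 counts ranged from 16.1 to 31.1 in Bahd1-WT and from 22.4 to 26.8 in Bahd1-KO mice, and its mean log2 value differed by 0.09 (two-sided exact permutation test, p = 0.8).

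Tlr9, the receptor for unmethylated CpG DNA, had the opposite sign, with wide spread. Its counts were 41, 15 and 18 in Bahd1-WT mice, against 10, 54 and 52 in Bahd1-KO mice, or 0.448, 0.243 and 0.245 CPM against 0.230, 0.567 and 0.898 CPM. Bahd1-KO replicates 2 and 3 were above all Bahd1-WT mice and Bahd1-KO replicate 1 was below all of them. The log2 fold change was 0.85 ± 0.48 (SE; edgeR adjusted p = 0.244), and with the GC offset -0.02. Without Bahd1-KO replicate 1, Tlr9 was a DEG, with a log2 fold change of 1.22 (edgeR adjusted p = 0.0428), as were 16.8% of all genes. Without Bahd1-KO replicate 3 the value was 0.42. Tlr12, which has a GC content close to that of Tlr9, had 0.164, 0.113 and 0.259 CPM in Bahd1-WT and 0.276, 0.368 and 0.380 CPM in Bahd1-KO mice. Its log2 fold change was 0.93 (edgeR unadjusted p = 0.0405, adjusted p = 0.141), where 19.9% of all genes were higher at an unadjusted p under 0.05. All Bahd1-KO mice were above all Bahd1-WT mice, a pattern found in 20.6% of all genes. With the GC offset the value was 0.07 and the genotypes overlapped.

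**Figure D3:**
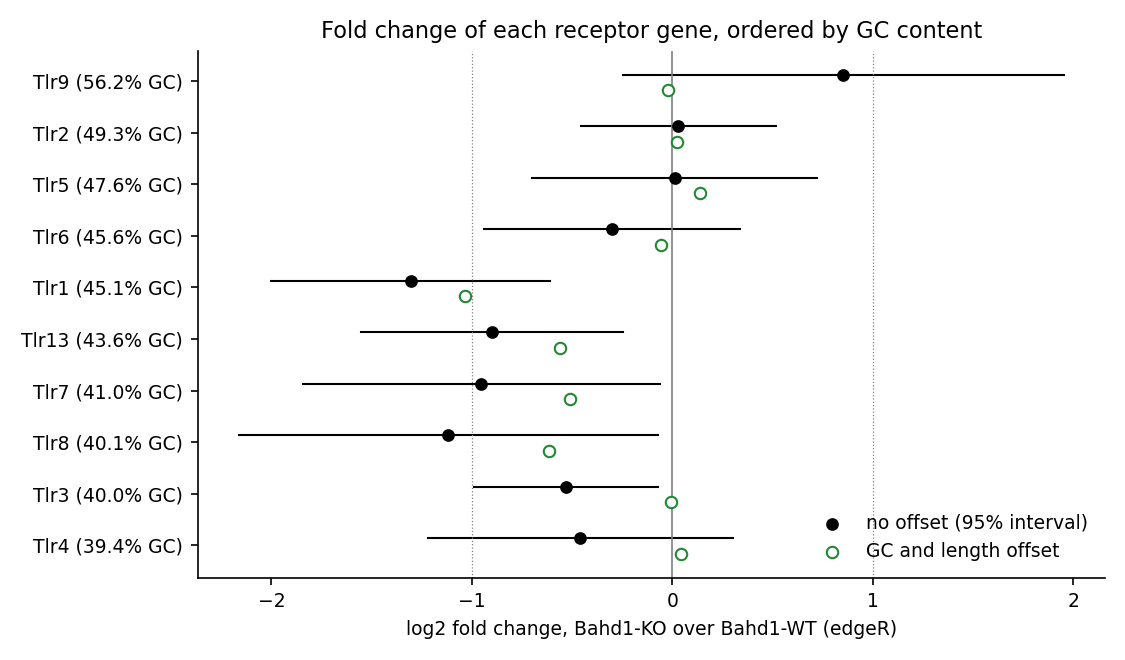
log2 fold change of Bahd1-KO over Bahd1-WT for each receptor, ordered by GC content, without the GC offset (filled points, lines are 95% intervals, n = 3 per genotype) and with it (open points). With the offset, the values of Tlr3, Tlr4 and Tlr9 lie between -0.02 and 0.04, and that of Tlr1 stays at -1.04.

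The receptor levels were also set against the amount of microglia markers in each mouse, as the ratio of a gene's CPM to the summed CPM of the 12 microglia markers. That sum was 439, 370 and 411 CPM in Bahd1-WT and 412, 351 and 404 CPM in Bahd1-KO mice, with overlap. Of the 12 markers, 4 were higher and 0 lower at an unadjusted p under 0.05, against 19.9% and 12% of all genes. Relative to this sum, Tlr1 was 0.206, 0.250 and 0.206% in Bahd1-WT and 0.0948, 0.0688 and 0.116% in Bahd1-KO mice, a difference of -1.27 on the log2 scale. The difference was -0.87 for Tlr13 and -0.48 for Tlr3. In these 3 genes all Bahd1-KO mice were below all Bahd1-WT mice (two-sided exact permutation test, p = 0.1 each, the smallest possible), a pattern that 15% of all genes had on the same ratio, and in the other 7 the genotypes overlapped. The median difference of the 10 receptors was -0.46, with the GC offset applied to receptors and markers it was 0.04, with the mean log2 level of the markers in place of their sum -0.73, and without Bahd1-KO replicate 2 -0.26.

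**Figure D4:**
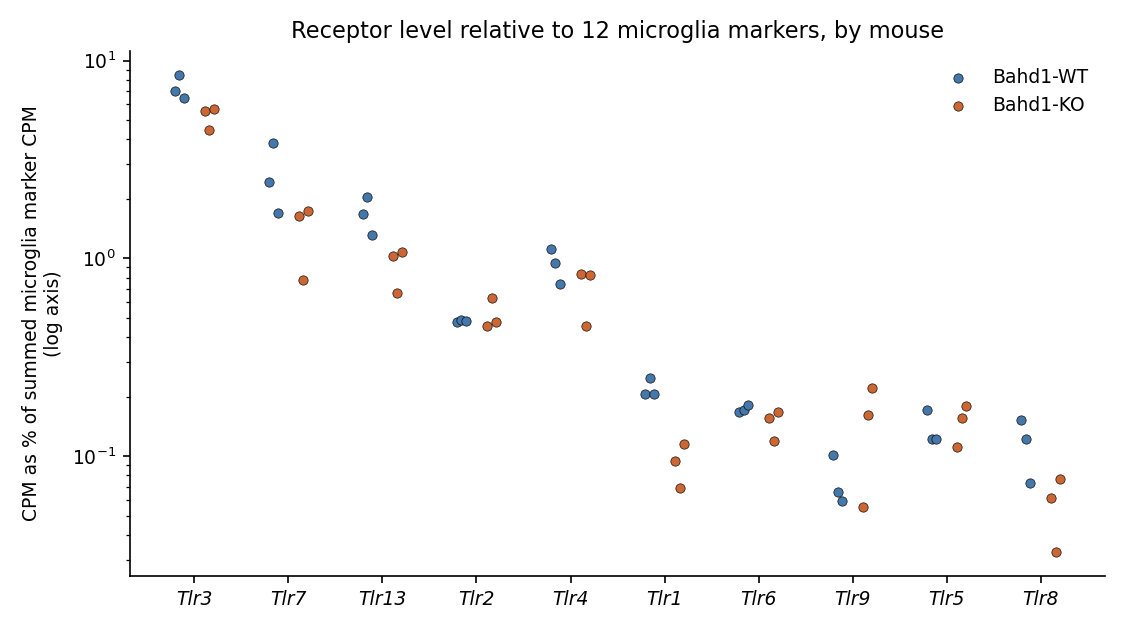
CPM of each receptor as a percentage of the summed CPM of 12 microglia markers, by mouse, on a log axis. The Bahd1-KO points of Tlr1, Tlr3 and Tlr13 sit below all their Bahd1-WT points, and those of Tlr7 overlap with them.

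Markers of other immune cells were also read, and of their sums only that of neutrophils did not overlap between the genotypes. Of 7 neutrophil markers, 3 were lower (S100a8, Mmp8 and Cxcr2) and 1 was higher (Camp, with 2 to 13 counts) at an unadjusted p under 0.05. The shares over all genes were 12% and 19.9%. The summed level of the 7 markers was 7.76 to 9.34 CPM in Bahd1-WT and 1.90 to 7.19 CPM in Bahd1-KO mice, without overlap. The summed level of 5 markers of border macrophages was 16.9 to 25.8 CPM in Bahd1-WT and 8.61 to 18.3 CPM in Bahd1-KO mice, with overlap. Of these 5, 1 (Lyve1) was lower and 0 were higher at an unadjusted p under 0.05, against 12% and 19.9% of all genes. The summed level of 4 markers of alveolar macrophages was 4.38, 1.85 and 0.450 CPM in Bahd1-WT and 0.378 to 0.708 CPM in Bahd1-KO mice. It was lowest among Bahd1-WT mice in replicate 3, as for the epithelial markers above. Of these 4, Chil3 carried most of the sum in Bahd1-WT replicates 1 and 2, with 3.86 and 1.47 CPM, and each of the 4 overlapped between the genotypes. Tlr1 in Bahd1-WT replicate 3 was 0.845 CPM, against 0.907 and 0.923 CPM in the other Bahd1-WT mice. Among the Bahd1-WT mice, Tlr4, Tlr8 and Cd36 were highest in replicate 1 and lowest in replicate 3, the same order as these lung markers. The other receptors had other orders, and Tlr1, Tlr3, Tlr7 and Tlr13 were highest in replicate 2. Pathway genes such as Lbp, Irak1, Irak2, Irak3, Cxcl10 and Ccl3 also had the order of the lung markers. The share of all genes with that order was not counted. The sums over 3 monocyte markers (at most 1.23 CPM), 4 B cell markers (at most 0.587 CPM) and 3 T cell markers (at most 0.501 CPM) were low in every library. The part of these cells in the receptor differences was not tested.

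No gene of the pathway around the receptors was a DEG either, a threshold passed by 0.00834% of all genes tested. From 53 genes of 7 lists, 51 were tested (Il12b and Ifnb1 did not pass the filter), and 6 were lower and 14 higher at an unadjusted p under 0.05, against 12% and 19.9% of all genes, the background of each list that follows. With the GC offset 6 were lower and 2 higher, against 11.4% and 9.89% of all genes. Their median log2 fold change over all 51 was 0.19, or 0.04 with the GC offset. DESeq2 gave 1 of them as a lower and 8 as higher DEGs, against 1.06% and 10.5% of all genes.

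Of the 3 genes for chaperones and trafficking, 2 were higher at an unadjusted p under 0.05, and 1 with the GC offset. Unc93b1, which carries the endosomal receptors out of the endoplasmic reticulum, had 3.88, 2.33 and 2.35 CPM in Bahd1-WT and 3.95, 11.6 and 6.60 CPM in Bahd1-KO mice. All Bahd1-KO mice were above all Bahd1-WT mice, narrowly in replicate 1, with a log2 fold change of 1.37 (edgeR adjusted p = 0.0702) that was 0.27 with the GC offset and 0.89 without Bahd1-KO replicate 2. Cnpy3, a cofactor for receptor folding, had 10.3 to 19.0 CPM in Bahd1-WT and 24.1 to 60.6 CPM in Bahd1-KO mice, a log2 fold change of 1.48 (edgeR adjusted p = 0.0634) and 0.36 with the GC offset. Hsp90b1, the chaperone gp96, had 619, 772 and 796 CPM against 841, 506 and 452 CPM, with overlap. Its log2 fold change was -0.28, and 0.13 with the GC offset. Without Bahd1-KO replicate 1 it was -0.58 (edgeR adjusted p = 0.0399), in the fit with 16.8% of all genes as DEGs. It was -0.18 without Bahd1-KO replicate 2 and -0.12 without Bahd1-KO replicate 3.

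Of the 7 coreceptors and accessory proteins, 1 was lower and 0 were higher at an unadjusted p under 0.05. That gene, Cd36, a scavenger receptor that works with Tlr2 and Tlr6, had 11.2, 4.23 and 2.37 CPM in Bahd1-WT and 2.67, 1.13 and 1.76 CPM in Bahd1-KO mice. The values overlapped, Bahd1-WT replicate 1 was far above the rest, and the log2 fold change was -1.69 (edgeR adjusted p = 0.0892). It was -1.19 with the GC offset and -0.84 without Bahd1-WT replicate 1. The lipopolysaccharide coreceptors had opposite signs. Cd14 had 0.654 to 1.03 CPM in Bahd1-WT and 0.919 to 1.59 CPM in Bahd1-KO mice, with a log2 fold change of 0.66, and Ly96 (MD-2) had 1.28 to 1.77 against 0.672 to 1.17 CPM, with -0.59. These were 0.25 and -0.21 with the GC offset, and without Bahd1-KO replicate 2 Ly96 was at -0.37. Neither had an unadjusted p under 0.05, and the values of Ly96 did not overlap.

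Among the 5 adaptors, 3 were higher at an unadjusted p under 0.05, and 0 with the GC offset. Myd88 had 3.08, 2.62 and 3.55 CPM in Bahd1-WT and 4.37, 6.02 and 4.06 CPM in Bahd1-KO mice, without overlap, with a log2 fold change of 0.64 (edgeR adjusted p = 0.116) and 0.13 with the GC offset. Ticam1, the adaptor of Tlr3, had 1.75 to 3.46 CPM against 3.42 to 8.49 CPM, a log2 fold change of 1.25 (edgeR adjusted p = 0.0749) and 0.30 with the GC offset. Tirap, which brings Myd88 to Tlr2 and Tlr4, overlapped between the genotypes at -0.30, and at -0.12 with the GC offset. It was -0.18 without Bahd1-KO replicate 1 and -0.49 without Bahd1-KO replicate 3.

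Of the 14 kinases and ubiquitin ligases, 4 were lower and 3 higher at an unadjusted p under 0.05, and 1 and 0 with the GC offset. Chuk (IKK-alpha) had 36.1 to 36.6 CPM in Bahd1-WT and 19.2 to 30.1 CPM in Bahd1-KO mice, with a log2 fold change of -0.61 (edgeR adjusted p = 0.0879) and -0.15 with the GC offset. Tab1, a partner of the kinase TAK1, had 4.44 to 8.33 CPM against 8.76 to 30.7 CPM, with 1.60 (edgeR adjusted p = 0.0679), 0.36 with the GC offset and 0.96 without Bahd1-KO replicate 2. Neither gene overlapped between the genotypes. Irak4, the first kinase after Myd88, had a log2 fold change of 0.19 with overlap, and 0.22 with the GC offset, and ranged from 0.035 to 0.43 with 1 mouse left out (lowest without Bahd1-KO replicate 2, highest without replicate 1). The ubiquitin ligase Traf6 had -0.36 without overlap, and -0.11 with the GC offset.

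Of the 9 transcription factors, 4 were higher and 0 lower at an unadjusted p under 0.05, while with the GC offset 1 was higher (Nfkb1) and 2 were lower (Irf3 and Irf7). Rela, the p65 subunit of NF-kB, had 6.21, 4.02 and 4.36 CPM in Bahd1-WT and 7.03, 24.8 and 14.1 CPM in Bahd1-KO mice, with a log2 fold change of 1.66 (edgeR adjusted p = 0.0634). All Bahd1-KO mice were above all Bahd1-WT mice, with Bahd1-KO replicate 1 the closest to them, and with the GC offset the value was 0.28. Rel, with 7.85 to 8.35 against 3.28 to 6.94 CPM, had -0.62 without overlap, -0.23 with the GC offset and -0.37 without Bahd1-KO replicate 2. Nfkb1 had 0.26 with overlap, 0.63 with the GC offset, 0.42 without Bahd1-KO replicate 1 and 0.15 without Bahd1-KO replicate 2. Irf7, which drives interferon genes after Tlr7 and Tlr9, had 1.64 to 2.17 CPM in Bahd1-WT and 1.29 to 3.21 CPM in Bahd1-KO mice, with a log2 fold change of 0.18 that was -0.67 with the GC offset, -0.21 without Bahd1-KO replicate 2 and 0.48 without Bahd1-KO replicate 1.

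Of the 6 negative regulators, 2 were higher at an unadjusted p under 0.05, while with the GC offset 0 were higher and 1 was lower (Irak3). Socs1, an inhibitor of cytokine signaling, had 3 to 13 counts in Bahd1-WT and 6 to 57 in Bahd1-KO mice, with overlap and a log2 fold change of 1.90 (edgeR adjusted p = 0.0907), 0.55 with the GC offset and 1.09 without Bahd1-KO replicate 2. Irak3 (IRAK-M), a macrophage inhibitor of the Myd88 branch, had 3.89 to 5.58 CPM in Bahd1-WT and 3.38 to 3.65 CPM in Bahd1-KO mice without overlap, with -0.45, and -0.48 with the GC offset. Tollip, which restrains the Tlr2 and Tlr4 pathways, had a log2 fold change of 0.10 with overlap.

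Cytokine and chemokine genes induced by the receptors were low, with a summed level of 1.24 to 1.91 CPM. Of 9 such genes 7 were tested, and 1 was lower at an unadjusted p under 0.05. Il1b, for interleukin-1 beta, was counted 49, 21 and 83 times in Bahd1-WT mice, against 13, 15 and 18 times in Bahd1-KO mice. In CPM it was 0.535, 0.340 and 1.13 against 0.299, 0.158 and 0.311 without overlap, a log2 fold change of -1.43 ± 0.50 (SE; edgeR adjusted p = 0.0991), and -1.26 with the GC offset. Without Bahd1-WT replicate 3 it was -0.83. Tnf had 0 to 4 counts in every library, so no difference in it was detectable at this depth.

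The genes closest to 2 receptors in their pattern over the 6 mice were found among the 14695 genes with a mean of at least 1 CPM, by the root-mean-square difference of log2 CPM centred on each gene's mean. For Tlr3 these were Erap1 (0.0192), an aminopeptidase that trims antigen peptides, Mtm1 (0.0255), a lipid phosphatase, and Lats1 (0.0257), a kinase of the Hippo pathway. Their log2 fold changes, -0.50 to -0.53, were close to that of Tlr3. For Tlr1 the closest were the predicted genes Gm8995 (0.145), Gm37928 (0.153) and Gm42664 (0.154), all less close than those of Tlr3. Tlr1 had 17 to 83 counts per library, against 1001 to 2833 for Tlr3, so its pattern carries more counting error. The genes named for both receptors had a GC content of 36.3 to 43.0%, where expressed genes had a negative median log2 fold change. These are descriptions over the mice compared, with no test.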

How the data were processed

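RNA-seq counts from 3 Bahd1-KO and 3 Bahd1-WT hemispheres were used, with groups taken from the sample labels. The authors deposited whole-number counts per gene, with 1 column per mouse, without normalization. Per the labels' processing notes and the methods, reads were trimmed with cutadapt 1.11, aligned to GRCm38 with STAR 2.5.0a (Tophat2 is also named) and counted on exons by strand with featureCounts 1.4.6-p3, and tested with DESeq2 1.20.0 in R 3.5.1. The table held 0 columns from elsewhere. Nothing in the labels ties the mice of a genotype to litters, and p-values measure the spread between these mice.

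Genes whose counts summed to 10 or more were tested with edgeR 4.0.16 in R 4.3.3 (TMM, quasi-likelihood, genotype as the only term, Benjamini-Hochberg over all 23975 genes). CPM use TMM-normalized library sizes. Positions, lengths and GC content are from GENCODE M21, for 99.9% of the genes tested. The GC offset is a natural spline per library on GC content (5 degrees of freedom) and log length (3), fitted to 13283 expressed genes. The script was tested on simulated data. The 16 alternatives were other scalings and filters, DESeq2 1.42.0 with and without its prior, each mouse left out, the replicate block and the GC offset, which with the first fit make 17. Relative to microglia, the alternatives were the mean log2 level of the markers and the GC offset. Depth was 42297150 to 93557948 counts, and the floor of 3 counts covers counting error only.

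The receptors, the pathway and marker lists and the rules were chosen with earlier results of these data known, and the motifs after the promoter windows were read. Named are all receptors, a fixed core of pathway genes, and in each list the gene of lowest p in each direction. The embryonic brains were not used here.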

Additional observations from a re-analysis of the deposited data

How the results depend on the processing

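Of the 160 receptor values under the 16 alternatives, 139 kept their direction and their side of the threshold of 0.05 on adjusted p. Of the rest, 9 newly passed it and 12 changed sign. For the named pathway genes, Tlr11 and Tlr12, under the alternatives that kept all mice, these were 205, 23 and 5 of 233. Receptor DEGs were 1 with total counts, with DESeq2 without and with its prior, and without a filter (Tlr1 each time), and 0 to 2 with 1 mouse left out. Receptors lower at an unadjusted p under 0.05 were 2 with total counts, 2 with the GC offset and 2 to 5 with 1 mouse left out, and those higher were 0 to 1. Without Bahd1-KO replicate 1, DEGs among all genes were 3988, against 2 with all mice. The median log2 fold change of the receptors was -0.0410 with the GC offset. Pathway DEGs were 3 with total counts, 9 with DESeq2 without and with its prior and 9 without a filter, and 0 to 11 with 1 mouse left out. DEGs among all genes tested were 8.37% with total counts, 11.5% and 10.5% with DESeq2 without and with its prior, 8.45% without a filter and 16.8% without Bahd1-KO replicate 1. Pathway genes lower at an unadjusted p under 0.05 were 12 with upper-quartile factors and 3 to 10 with 1 mouse left out, and those higher were 2 with the GC offset and 8 to 19 with 1 mouse left out. All genes with an unadjusted p under 0.05, in either direction, were 31.8% in the first fit, 29.7% with total counts, 34.7% with upper-quartile factors, 21.3% with the GC offset and 18.3 to 43.2% with 1 mouse left out.

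Upper-quartile factors, which shifted the median of all genes by -0.14, gave -0.11 for Tlr2, -0.13 for Tlr5 and -0.0425 for Tollip, and edgeR's own filter gave -0.0032 for Tlr5. With 1 mouse left out, Tlr2 ranged from -0.05 to 0.10, Tlr5 from -0.16 to 0.27 and Irf7 from -0.21 to 0.48. With the GC offset Tlr4 was 0.0433, Tlr9 -0.0234, Hsp90b1 0.13 and Irf7 -0.67, and the median of the receptors relative to microglia markers was 0.0440, whereas with the mean log2 level of the markers it was -0.73.

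Same-numbered mice of the 2 genotypes are different animals, and their deviations correlated at -0.656 to -0.144, so the numbers do not pair them. With the replicate block 3 receptors and 3 pathway genes were lower at an unadjusted p under 0.05, as 21.8% of all genes were lower or higher, and 7 of all genes were DEGs. With the GC offset and the replicate block, 2 receptors were lower, 2 pathway genes were higher, against 15.9% of all genes in either direction, the median of the receptors was -0.0754, and Tlr4 was 0.0582, Tlr9 -0.10, Hsp90b1 0.12 and Irf7 -0.68. The cause of these changes was not tested. Depth limits Tlr1, Tlr5, Tlr6, Tlr8 and Tlr9, which had 10 to 83 counts per library, and 3 mice a genotype limit all values.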
